A study of Mus musculus with 6 samples.

Results

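The gap junction and intercalated disc genes described here are 10 genes picked by symbol: the connexin genes Gja1 and Gja5, the scaffold gene Tjp1, the adherens junction genes Cdh2 and Ctnna3, the shared plakoglobin gene Jup, and the desmosome genes Dsp, Pkp2, Dsg2 and Dsc2. All 10 were present among the 54532 genes of the expression table, and all 10 were among the 10460 genes expressed highly enough to be tested. RNA came from the myocardium of hypertrophic hearts of wild-type C57BL/6 mice aged 18 weeks. In the TuD group (3 libraries), hearts carried AAV9 with anti-miR-199a tough decoys, hairpin RNAs that hold a microRNA away from its targets. In the AAV9-EGFP group (3 libraries), hearts carried the same type of virus with EGFP, so both groups were hypertrophic and both had been given virus. The labels used here do not state sex, the cause of the hypertrophy, the viral dose or promoter, or whether each library is a separate animal. The p-values therefore measure the spread between libraries.

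The intercalated disc is the end-to-end contact between neighbouring cardiomyocytes. It holds gap junctions, channels made of connexins that pass current from cell to cell, adherens junctions, where cadherins are linked through catenins to actin of the sarcomeres, and desmosomes, where desmosomal cadherins are linked through plakoglobin, plakophilin and desmoplakin to desmin filaments. In the heart these junctions share proteins and lie side by side, and mutations in several desmosome genes are a known cause of arrhythmogenic cardiomyopathy in people.

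The decoys were directed against miR-199a, so its mature forms and their matches in the disc genes are shown. Both mature mouse sequences are given 5′ to 3′ from RefSeq (GRCm38.p6), with the seed, bases 2 to 8, in capitals.
miR-199a-5p: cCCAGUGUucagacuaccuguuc
miR-199a-3p: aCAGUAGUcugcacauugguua
The microRNA itself was not measured in these libraries. A match was a stretch complementary to bases 2 to 8, or to bases 2 to 7 followed by an A, in the longest annotated 3′ UTR of each gene (GENCODE M21, GRCm38). Of the 10 disc genes 5 held at least 1 match, with 6 matches in all. Among 9544 tested genes with an annotated 3′ UTR, 31.7% held a match to either form, 23.2% one to miR-199a-5p and 13.7% one to miR-199a-3p. The matches are printed on the strand of the transcript, with the matching bases in capitals and 11 bases to each side.
Gja1, miR-199a-3p (chr10:56390299-56390327, + strand): ttccatgttaaACTACTGtcatgttcagc
Dsp, miR-199a-3p (chr13:38198252-38198280, + strand): aaattacactgACTACTGgtggcttagta
Jup, miR-199a-5p (chr11:100370857-100370885, - strand): cacatcactccACACTGGcccatctgctc
Ctnna3, miR-199a-5p (chr10:65003560-65003588, + strand): gagtcatcaccCACTGGAgaagtgaattt
Gja5, miR-199a-5p (chr3:97053418-97053446, + strand): atccattcccgACACTGGcactaagactc
Gja5, miR-199a-3p (chr3:97052944-97052972, + strand): tcctggggtatCTACTGAgtggatccatc
Cdh2, Pkp2, Dsg2, Dsc2 and Tjp1 held none in the 3′ UTR searched. A match is a description of the letters and not evidence that the microRNA binds there.

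Some libraries stood apart. TuD replicate 3 was the TuD library with transcripts of 4 Y-linked genes, at a sum of 12.6 normalised FPKM, against 0.0256 and 0.00706 in TuD replicates 1 and 2 and 8.16 to 9.74 in the AAV9-EGFP libraries. The same library was high in some atrial transcripts: Myl7, the atrial regulatory myosin light chain, stood at 90.8 in TuD replicate 3, at 1.44 and 1.29 in the other TuD libraries, and at 0.178 to 0.269 in the AAV9-EGFP libraries. Sln, an atrial regulator of the calcium pump, stood at 10.7 in TuD replicate 3, at 0.0995 and 0.157 in the other TuD libraries, and was listed at 0 in all AAV9-EGFP libraries. Myl4 (12.7) and, at a very low level, Dhrs9 (0.126) were also highest in TuD replicate 3. Other atrial markers went the other way: Nppa, at 99.6, and Stard10, at 15.6, were lowest of the 6 libraries there. Bmp10 was at 0.0154 or less in every library. TuD replicates 1 to 3 held 16241621, 15231319 and 16651455 gene-assigned reads, against 18024041, 18224978 and 18027558 in AAV9-EGFP replicates 1 to 3. Every TuD library thus had fewer reads than every AAV9-EGFP library, and the part of depth in the results was not tested. Across all tested genes the log2 fold change followed gene length, with a correlation over genes of -0.386 with log10 length. The disc genes were long, at 5277 to 10257 bases (median 7519), whereas the median tested gene had 3852.5. Mitochondrial reads made up 17.5%, 12.6% and 11.1% of reads in TuD replicates 1 to 3, against 12.0%, 5.31% and 8.29% in AAV9-EGFP replicates 1 to 3, and their part in the results was not tested. The 10 disc genes are therefore also given without TuD replicate 3, with a covariate for Y-linked transcripts, which rests the estimate on TuD replicate 3 alone, and after removal of each library's trend with length. Without TuD replicate 3, no TuD library has Y-linked transcripts and every AAV9-EGFP library has them. In that fit this difference and the treatment cannot be told apart. In the fit to all 6 libraries they also overlap in part, because only TuD replicate 3 of the TuD libraries has Y-linked transcripts.

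Of the 10 disc genes 7 fell in TuD hearts (Gja1, Cdh2, Jup, Dsp, Pkp2, Dsg2 and Dsc2), none rose, and Tjp1, Ctnna3 and Gja5 did not pass the test. A gene passed at an adjusted p under 0.05 in a limma fit over all tested genes, in which 14.3% of genes were called lower and 15.0% higher. The median log2 fold change of the 10 genes was -0.55, and that of all tested genes 0.01. All TuD values lay below all AAV9-EGFP values for 8 of the 10 genes, against 24.4% of tested genes. Values are FPKM after division by size factors, here called normalised FPKM, and in whole tissue fewer cells of a type and less RNA per cell cannot be told apart.

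The count changed with the libraries kept and with removal of the length trend. Without TuD replicate 3, 8 of the 10 fell, Ctnna3 being the added gene, and 15.8% of genes tested were called lower. With Y-linked transcripts as covariate 2 of the 10 fell, Gja1 and Jup, against 5.06% of tested genes. With the length trend removed 2 fell, Gja1 and Cdh2, against 12.7%. Leaving out a library other than TuD replicate 3 left 3 (without TuD replicate 1 or 2, or AAV9-EGFP replicate 1) or 2 (without AAV9-EGFP replicate 2 or 3). Calls over all tested genes fell as well, from 1498 of 10460 lower in the fit to all 6 libraries. They were 996 of 10233 and 1008 of 10257 without TuD replicates 1 and 2. Without AAV9-EGFP replicates 1, 2 and 3 they were 979 of 10233, 718 of 10276 and 838 of 10263. The part that atrial tissue, sex and the length trend have in these results was not tested beyond these fits.

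**Figure D1:**
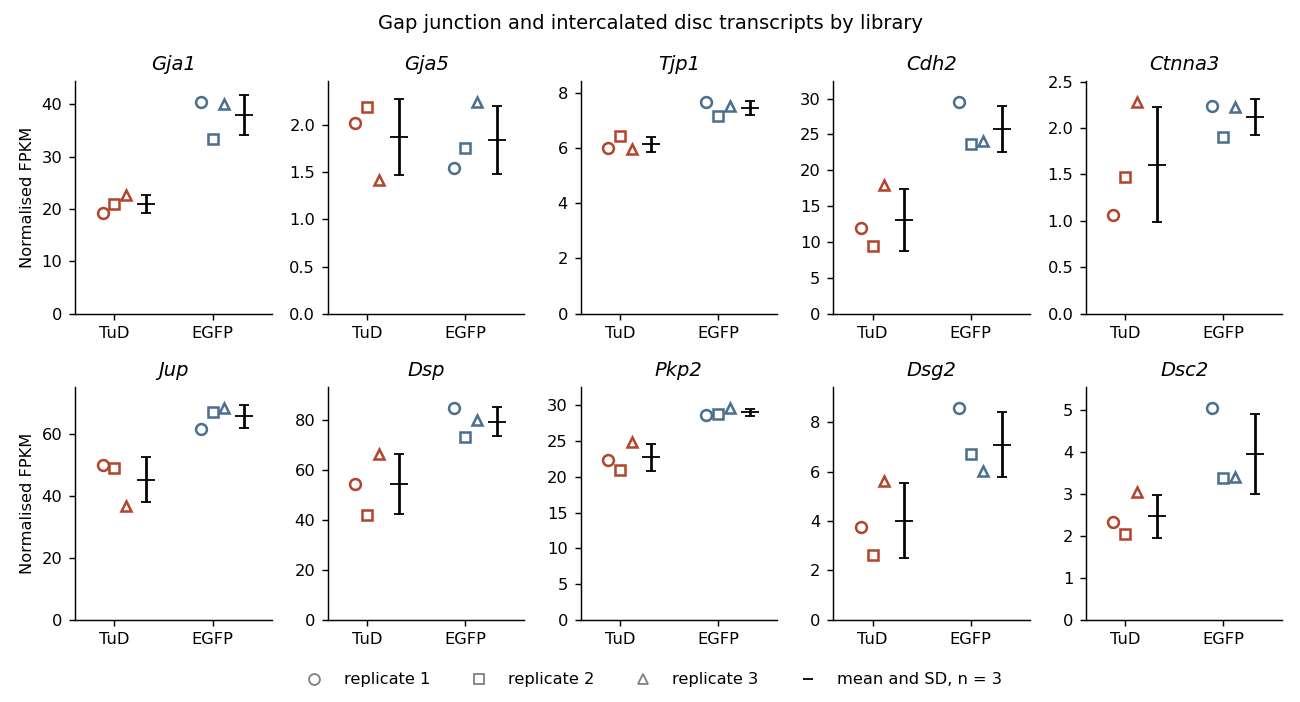
Normalised FPKM of each of the 10 genes (y axes start at 0) in the TuD and AAV9-EGFP libraries, with 1 symbol per library and the mean and SD (n = 3) beside them. The groups do not overlap for 8 genes; Gja5 and Ctnna3 overlap.

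Gja1 encodes connexin 43, the main connexin of ventricular muscle (ENSMUSG00000050953, chromosome 10, 56377330 to 56402513, mm10). It measured 19.2, 21.0 and 22.7 normalised FPKM in TuD replicates 1 to 3, against 40.4, 33.5 and 40.0 in AAV9-EGFP replicates 1 to 3. The highest TuD library stayed well below the lowest AAV9-EGFP library, and the TuD mean was 44.8% lower. The log2 fold change was -0.84 ± 0.12 (SE, n = 3 per group, adjusted p = 0.00349). Of the 10 genes, Gja1 was the one that passed in all 20 fits, which were the main one and 19 alternatives, with log2 fold changes of -1.23 to -0.67 and adjusted p-values of 0.000937 to 0.0312. It passed without TuD replicate 3 (-0.90, adjusted p = 0.00280), with Y-linked transcripts as covariate (-0.73, adjusted p = 0.0312) and with the length trend removed (-0.67, adjusted p = 0.00732).

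Gja5 encodes connexin 40, the connexin of atrial muscle, the fast conduction system and arterial endothelium (ENSMUSG00000057123, chromosome 3, 96904693 to 97077416). It measured 2.02, 2.19 and 1.42 normalised FPKM in TuD replicates 1 to 3, against 1.54, 1.75 and 2.24 in AAV9-EGFP replicates 1 to 3. The groups overlapped throughout, and TuD replicate 3, the library high in Myl7 and Sln, was the lowest of the 6. The log2 fold change was 0.02 ± 0.18 (SE, adjusted p = 0.952), with a 95% confidence interval of -0.39 to 0.42. It was 0.16 without TuD replicate 3 (adjusted p = 0.474) and 0.12 with the length trend removed (adjusted p = 0.652). The sign turned with Y-linked transcripts as covariate (-0.28, adjusted p = 0.391). It rested on 136 to 245 reads per library. Of its 5746 exon bases 165 overlap exons of Gpr89 on the other strand, and the strand setting of the counting is not given in the sources used here.

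The level of Gja1 relative to Gja5 was 9.52, 9.59 and 15.9 in TuD replicates 1 to 3, against 26.3, 19.1 and 17.8 in AAV9-EGFP replicates 1 to 3. All TuD ratios lay below all AAV9-EGFP ratios, with TuD replicate 3 nearest to them. The ratio was taken per base of annotated exon and was given no test.

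Tjp1 encodes ZO-1, the scaffold that binds the tail of connexin 43 at the edge of gap junction plaques (ENSMUSG00000030516, chromosome 7, 65296165 to 65527781). It measured 6.01, 6.42 and 5.94 normalised FPKM in TuD replicates 1 to 3, against 7.65, 7.14 and 7.51 in AAV9-EGFP replicates 1 to 3. The groups did not overlap, and the means differed by 17.6%, but the gene did not pass (log2 fold change -0.26 ± 0.10 SE, adjusted p = 0.0757, unadjusted p = 0.0270). With the length trend removed it stood at -0.11 (adjusted p = 0.428), without TuD replicate 3 at -0.24 (adjusted p = 0.117) and with Y-linked transcripts as covariate at -0.30 (adjusted p = 0.165). After rescaling to TPM, which moved the median of all genes to -0.36, it passed at -0.65 (adjusted p = 0.00375).

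Promoters of Gja1, Gja5, Jup and Dsp are printed from RefSeq (GRCm38.p6), of the 6 disc genes whose promoters were searched. They show what lies upstream of connexin and desmosome genes that fell and of the connexin gene that did not pass. Each runs from 250 bases before the start to 50 after it, 5′ to 3′ on the gene's strand. A GC box was searched as GGGCGG on both strands, as were the other motifs, and 35.7% of 32851 promoters of the same length held one. The AP-1 motif, TGANTCA, reads alike on both strands apart from its middle base, and 7.81% of promoters held it. A T-box motif, written AGGTGT, was in 13.7% of promoters. The GATA motif, written AGATAA, was in 11.2%, and the MCAT motif, written CATTCC, in 14.7%. Matches are in capitals.
Gja1 (chr10:56377050-56377349, + strand): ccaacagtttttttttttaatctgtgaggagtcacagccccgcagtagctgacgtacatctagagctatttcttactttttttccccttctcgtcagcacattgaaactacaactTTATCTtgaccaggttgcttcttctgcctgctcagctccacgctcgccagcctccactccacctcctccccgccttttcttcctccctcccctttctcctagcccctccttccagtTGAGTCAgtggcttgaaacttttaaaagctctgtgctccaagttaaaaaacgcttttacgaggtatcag
Gja5 (chr3:97032152-97032451, + strand): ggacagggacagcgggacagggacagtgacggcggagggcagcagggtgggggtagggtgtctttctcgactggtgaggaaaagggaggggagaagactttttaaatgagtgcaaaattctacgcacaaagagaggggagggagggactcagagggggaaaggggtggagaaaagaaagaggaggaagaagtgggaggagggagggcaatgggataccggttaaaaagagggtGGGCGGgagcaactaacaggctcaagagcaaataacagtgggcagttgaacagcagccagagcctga
Jup (chr11:100397741-100398040, - strand): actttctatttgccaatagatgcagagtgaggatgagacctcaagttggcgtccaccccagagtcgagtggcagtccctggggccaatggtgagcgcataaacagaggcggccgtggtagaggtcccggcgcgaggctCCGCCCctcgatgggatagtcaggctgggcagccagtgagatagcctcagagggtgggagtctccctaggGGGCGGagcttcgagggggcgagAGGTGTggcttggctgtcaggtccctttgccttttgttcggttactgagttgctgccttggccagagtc
Dsp (chr13:38151044-38151343, + strand): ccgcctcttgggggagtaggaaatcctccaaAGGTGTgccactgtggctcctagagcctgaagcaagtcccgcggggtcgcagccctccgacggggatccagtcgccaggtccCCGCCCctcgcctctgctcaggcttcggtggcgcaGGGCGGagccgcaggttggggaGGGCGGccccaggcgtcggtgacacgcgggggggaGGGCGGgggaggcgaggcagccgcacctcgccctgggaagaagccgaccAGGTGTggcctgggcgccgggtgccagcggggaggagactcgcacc
The Gja1 window held an AP-1 match at position -19 from the start and a GATA match at -135, and no GC box. The Gja5 window held 1 GC box, at -17, and no other match. Jup had GC boxes at -112 and -42 and a T-box match at -19. Dsp had 4 GC boxes between -137 and -45 and T-box matches at -219 and 5. GC content was 47.7% for Gja1, 55.7% for Gja5, 60.7% for Jup and 73.0% for Dsp, and the median of all promoters was 52.7%. A match describes letters only, and its absence says nothing of a factor.

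Cdh2 encodes N-cadherin, the adhesion molecule of the cardiac adherens junction (ENSMUSG00000024304, chromosome 18, 16588877 to 16809246). It measured 12.0, 9.40 and 17.9 normalised FPKM in TuD replicates 1 to 3, against 29.5, 23.7 and 24.1 in AAV9-EGFP replicates 1 to 3. TuD replicate 2 was lowest and TuD replicate 3 closest to the AAV9-EGFP range, which no TuD library entered. The mean was 49.2% lower in TuD hearts, and the log2 fold change of -0.99 ± 0.21 (SE, adjusted p = 0.0122) was the most negative of the 10 genes in this fit. It was -1.23 without TuD replicate 3 (adjusted p = 0.00211) and -0.84 with the length trend removed (adjusted p = 0.0193). The call ended with Y-linked transcripts as covariate, where the estimate was -0.51 (adjusted p = 0.107).

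Ctnna3 encodes alphaT-catenin, which joins cadherin complexes to actin and binds plakophilin 2 (ENSMUSG00000060843, chromosome 10, 63430098 to 65003667). It measured 1.06, 1.47 and 2.28 normalised FPKM in TuD replicates 1 to 3, against 2.24, 1.90 and 2.23 in AAV9-EGFP replicates 1 to 3. TuD replicates 1 and 2 lay below the AAV9-EGFP range and TuD replicate 3 just above it. The gene did not pass (-0.35 ± 0.21 SE, adjusted p = 0.223). It passed without TuD replicate 3 (-0.58, adjusted p = 0.0288), and its sign turned with Y-linked transcripts as covariate (0.09, adjusted p = 0.793). With the length trend removed it stood at -0.22 (adjusted p = 0.462). It also passed after rescaling to TPM (-0.75, adjusted p = 0.0382), and rested on 117 to 306 reads per library.

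Jup encodes plakoglobin, the catenin found in both adherens junctions and desmosomes (ENSMUSG00000001552, chromosome 11, 100368958 to 100397763). It measured 49.95, 49.2 and 36.8 normalised FPKM in TuD replicates 1 to 3, against 61.6, 67.4 and 68.4 in AAV9-EGFP replicates 1 to 3. Unlike for Cdh2, the TuD library farthest from the AAV9-EGFP range was replicate 3. The mean was 31.1% lower in TuD hearts, with a log2 fold change of -0.55 ± 0.14 (SE, adjusted p = 0.0206). It was -0.41 without TuD replicate 3 (adjusted p = 0.0213) and -0.83 with Y-linked transcripts as covariate (adjusted p = 0.0171). The call ended with the length trend removed (-0.42, adjusted p = 0.0608) and with no filter on low genes (-0.55, 0.0556). It also ended without AAV9-EGFP replicate 2 (-0.53, adjusted p = 0.0699) or 3 (-0.52, 0.0708).

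Dsp encodes desmoplakin, which anchors desmin filaments to the desmosome (ENSMUSG00000054889, chromosome 13, 38151294 to 38198577). It measured 54.5, 42.1 and 66.4 normalised FPKM in TuD replicates 1 to 3, against 84.7, 73.2 and 79.9 in AAV9-EGFP replicates 1 to 3. The groups did not overlap, TuD replicate 2 being lowest, and the mean was 31.5% lower in TuD hearts (-0.56 ± 0.16 SE, adjusted p = 0.0352). The call held without TuD replicate 3 (-0.72, adjusted p = 0.00800). It ended with the length trend removed (-0.40, adjusted p = 0.0671), with Y-linked transcripts as covariate (-0.25, 0.350), with no filter (0.0960), and without TuD replicate 1 (0.0771) or 2 (0.0673) or AAV9-EGFP replicate 1 (0.0962), 2 (0.0682) or 3 (0.0930). With each of these libraries left out the estimate stayed negative, at -0.62 to -0.39, and with no filter it was unchanged. Of the 9659 exon bases of Dsp 499 overlap exons of Gm10129 on the other strand.

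Pkp2 encodes plakophilin 2, the plakophilin of cardiac desmosomes (ENSMUSG00000041957, chromosome 16, 16213318 to 16272712). It measured 22.3, 21.0 and 24.8 normalised FPKM in TuD replicates 1 to 3, against 28.7, 28.7 and 29.6 in AAV9-EGFP replicates 1 to 3. The AAV9-EGFP libraries lay close together and above every TuD library, and the mean was 21.7% lower in TuD hearts (-0.35 ± 0.10 SE, adjusted p = 0.0333). The call held without TuD replicate 3 (-0.42, adjusted p = 0.0169). Without any other single library the estimate was -0.36 to -0.29, but the call did not hold. It ended with the length trend removed (-0.25, adjusted p = 0.0759), with Y-linked transcripts as covariate (-0.22, 0.258), and without TuD replicate 1 (0.0898) or 2 (0.0775) or AAV9-EGFP replicate 1 (0.0746), 2 (0.0902) or 3 (0.112).

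Dsg2 and Dsc2 encode desmoglein 2 and desmocollin 2, the desmosomal cadherins of heart muscle (ENSMUSG00000044393, chromosome 18, 20558074 to 20604521, and ENSMUSG00000024331, chromosome 18, 20030633 to 20059554). Dsg2 measured 3.77, 2.64 and 5.63 normalised FPKM in TuD replicates 1 to 3, against 8.56, 6.72 and 6.01 in AAV9-EGFP replicates 1 to 3. TuD replicate 3 came within a small distance of AAV9-EGFP replicate 3, and the TuD mean was 43.4% lower (-0.79 ± 0.24 SE, adjusted p = 0.0393). Dsc2 measured 2.32, 2.04 and 3.04 in TuD replicates 1 to 3, against 5.04, 3.39 and 3.41 in AAV9-EGFP replicates 1 to 3. Its AAV9-EGFP spread was set mostly by replicate 1, and the TuD mean was 37.4% lower (-0.58 ± 0.18 SE, adjusted p = 0.0479). Dsc2 rested on 156 to 502 reads per library. Without TuD replicate 3 both held (Dsg2 -1.04, adjusted p = 0.00658, and Dsc2 -0.71, adjusted p = 0.0219). Both calls ended with the length trend removed (-0.64, adjusted p = 0.0663, and -0.48, 0.0821) and with Y-linked transcripts as covariate (-0.29, 0.419, and -0.31, 0.384), and with no filter (0.1196 and 0.131). They ended as well without any other single library: adjusted p was 0.0918 and 0.116 without TuD replicate 1, 0.0965 and 0.135 without TuD replicate 2, and 0.114 and 0.127, 0.0897 and 0.0707, and 0.0583 and 0.0706 without AAV9-EGFP replicates 1, 2 and 3, Dsg2 first in each pair. In these single-library fits the estimates stayed negative, at -0.90 to -0.55 for Dsg2 and -0.67 to -0.41 for Dsc2. With no filter both fold changes were unchanged. Of the 8268 exon bases of Dsg2, 330 overlap exons of Gm16090 on the other strand.

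**Figure D2:**
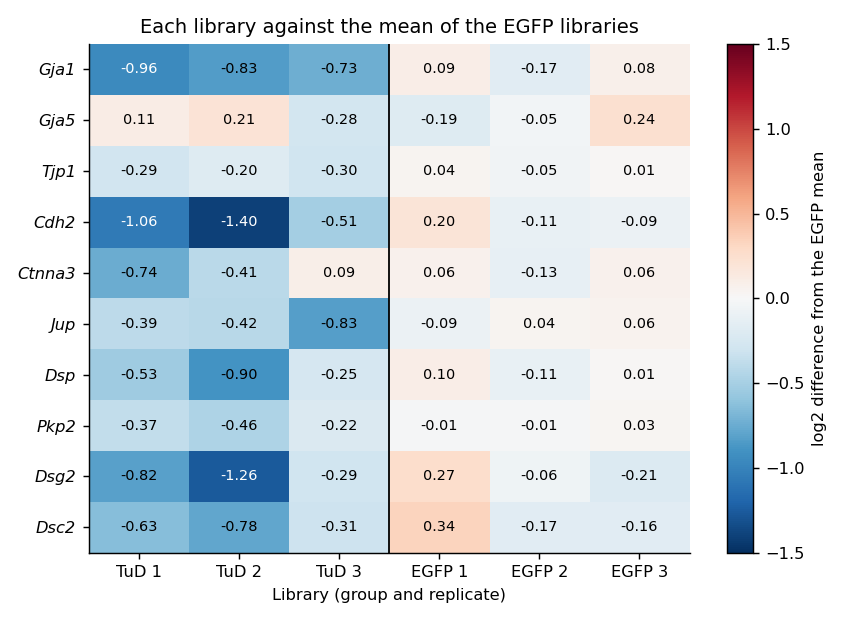
Log2 difference of each library from the mean of the AAV9-EGFP libraries (log2 of normalised FPKM plus 0.5), with the 10 genes as rows and the 6 libraries as columns. TuD replicate 2 has the lowest values for Cdh2 (-1.40), Dsg2 (-1.26) and Dsp (-0.90), whereas Jup is lowest in TuD replicate 3 (-0.83).

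Within the TuD group the disc genes did not share 1 order of libraries, as the map of library differences shows. TuD replicate 2 was the lowest TuD library for 5 genes, Cdh2, Dsp, Pkp2, Dsg2 and Dsc2, that is N-cadherin and 4 desmosome genes. TuD replicate 3 was the highest TuD library for these 5 and for Gja1 and Ctnna3, 7 in all. For Jup, Tjp1 and Gja5 the order differed, with TuD replicate 3 lowest. Cdh2 ranged from -1.40 to -0.51 on the log2 scale relative to the AAV9-EGFP mean over the TuD libraries, and Jup from -0.83 to -0.39. Gja1 had a narrower range, from -0.96 to -0.73.

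**Figure D3:**
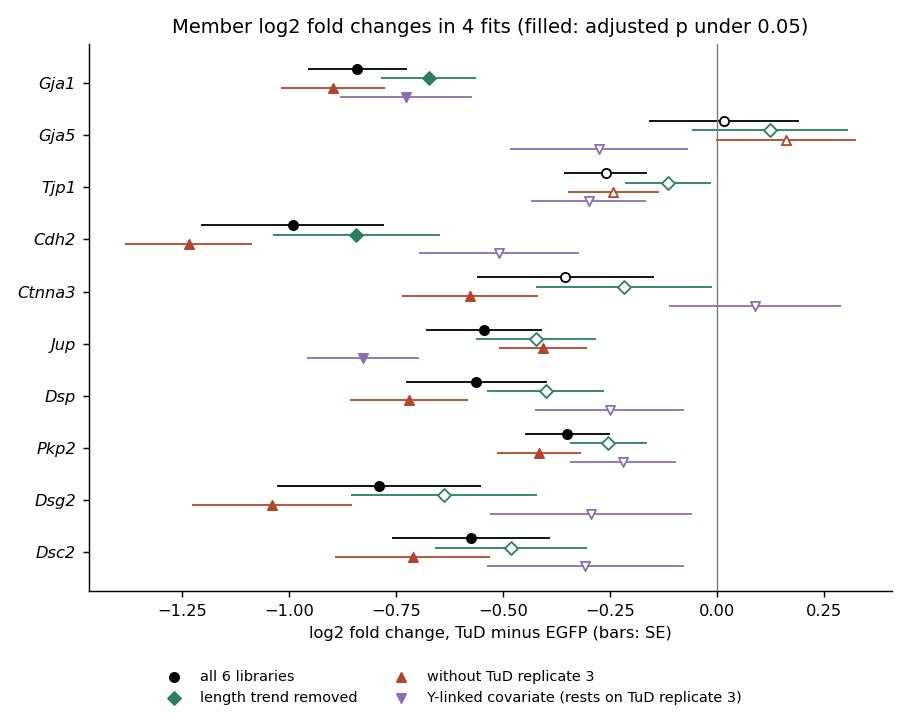
Log2 fold changes (TuD minus EGFP) of the 10 genes with SE bars in the fit to all 6 libraries, with the length trend removed, without TuD replicate 3 and with Y-linked transcripts as covariate; filled symbols passed at an adjusted p under 0.05. Gja1 is filled in all 4 fits, and Gja5 and Tjp1 in none.

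The genes differed widely in level, compared here per kilobase of the authors' gene length. In TuD hearts the order of the means was Dsp, Jup, Pkp2, Gja1, Cdh2, Tjp1, Dsg2, Dsc2, Gja5 and Ctnna3, from 54.3 ± 12.1 to 1.604 ± 0.619 normalised FPKM (SD, n = 3). In AAV9-EGFP hearts it was Dsp, Jup, Gja1, Pkp2, Cdh2, Tjp1, Dsg2, Dsc2, Ctnna3 and Gja5, from 79.3 ± 5.74 to 1.85 ± 0.361. Single libraries of neighbours in the TuD order overlapped for Dsp with Jup, Pkp2 with Gja1, Dsg2 with Dsc2, Dsc2 with Gja5, and Gja5 with Ctnna3. In the AAV9-EGFP order they overlapped for Pkp2 with Cdh2, Tjp1 with Dsg2, and Ctnna3 with Gja5. The authors' lengths equal the union of all annotated exons of each gene in GENCODE M21, which for Gja1 is 10257 bases, against 3182 bases for its principal transcript. Per kilobase of principal transcript, Gja1 stood at 67.6 ± 5.53 in TuD hearts and 122 ± 12.6 in AAV9-EGFP hearts. On that scale Jup led, at 91.0 ± 14.8 in TuD hearts and 132 ± 7.40 in AAV9-EGFP hearts, and Dsp stood at 54.7 ± 12.2 and 79.8 ± 5.78. The ratio of the group means for a gene does not depend on this choice of length. Its fitted log2 fold change does, through the 0.5 added to FPKM, and most for low genes.

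Other connexins were sparse. Of 21 connexin and pannexin genes outside the disc genes, 3 were expressed highly enough to be tested, and none passed. Gja4, the connexin 37 gene of arterial endothelium, measured 13.7, 15.3 and 8.20 normalised FPKM in TuD replicates 1 to 3, against 7.17, 8.17 and 8.52 in AAV9-EGFP replicates 1 to 3. The groups overlapped through TuD replicate 3 (0.57 ± 0.21 SE, adjusted p = 0.0761), and without that library Gja4 passed, higher in TuD hearts (0.83, adjusted p = 0.00326). It passed in no other alternative and stood at 0.05 with Y-linked transcripts as covariate (adjusted p = 0.859), 0.33 with the length trend removed (0.236) and 0.20 after rescaling to TPM (0.411). Gja3, a connexin gene best known from the lens, averaged 3.97 ± 1.53 in TuD hearts and 4.90 ± 1.03 in AAV9-EGFP hearts (adjusted p = 0.391). The other tested gene was Gjc1, the connexin 45 gene of the conduction system.

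Among 14 genes of connexin trafficking and turnover 4 fell, 1 rose and 9 did not pass (median log2 fold change -0.20). Over all tested genes 14.3% were lower and 15.0% higher in this fit, and 12.7% were lower with the length trend removed. With no filter 956 of 22702 genes were lower, and after rescaling to TPM 4202 of 10460. The count of the 14 that fell was 4 without TuD replicate 3, 2 without TuD replicate 1 or 2 or AAV9-EGFP replicate 1 or 3, and 1 without AAV9-EGFP replicate 2. It was 2 with the length trend removed or with no filter, 0 with Y-linked transcripts as covariate and 8 after rescaling to TPM. Cnst, the consortin gene whose product sends connexins to the cell surface, fell to 4.60 ± 0.4498 normalised FPKM in TuD hearts, against 7.53 ± 0.701 in AAV9-EGFP hearts (-0.65 ± 0.12 SE, adjusted p = 0.00718). With Y-linked transcripts as covariate it stood at -0.55 (adjusted p = 0.0623). Csnk1d, a casein kinase gene whose enzyme phosphorylates connexin 43, fell to 11.7 ± 0.733 in TuD hearts, against 15.6 ± 0.916 in AAV9-EGFP hearts (-0.40, adjusted p = 0.0221). Cav3, the muscle caveolin gene, rose to 98.0 ± 10.9, against 71.4 ± 3.36 (0.45, adjusted p = 0.0206). The call of Cav3 ended with the length trend removed (0.09, adjusted p = 0.4497), after rescaling to TPM (0.06, 0.731) and after quantile normalization (0.0571). It also ended without AAV9-EGFP replicate 1 (0.0605), 2 (0.0538) or 3 (0.0817). That of Csnk1d ended without TuD replicate 2 (0.0561) or AAV9-EGFP replicate 1 (0.0629) or 2 (0.0825). In these single-library fits the estimates were 0.42 to 0.48 for Cav3 and -0.39 to -0.34 for Csnk1d. With Y-linked transcripts as covariate neither Csnk1d (0.121) nor Cav3 (0.140) passed.

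Other adherens junction genes moved one way where they passed: of 13 tested, 4 fell, none rose and 9 did not pass (median -0.15). Over all tested genes 14.3% were lower in this fit, and 4202 of 10460 after rescaling to TPM. The count of the 13 that fell was 4 without TuD replicate 3, 1 without TuD replicate 1 or 2 or AAV9-EGFP replicate 3, 2 without AAV9-EGFP replicate 2 and 3 without AAV9-EGFP replicate 1. It was 1 with Y-linked transcripts as covariate and 8 after rescaling to TPM. Vcl, the vinculin gene whose product ties adherens junctions and costameres to actin, measured 2.02, 1.82 and 3.35 normalised FPKM in TuD replicates 1 to 3, against 9.60, 9.35 and 8.80 in AAV9-EGFP replicates 1 to 3. Every TuD library stayed below the lowest AAV9-EGFP library by a wide gap (-1.79 ± 0.19 SE, adjusted p = 0.00194), and the call held in all 19 alternatives, down to -1.34 with Y-linked transcripts as covariate (adjusted p = 0.0102). Ctnnb1, the beta-catenin gene, fell to 35.5 ± 3.68 in TuD hearts, against 48.9 ± 3.999 in AAV9-EGFP hearts (-0.46, adjusted p = 0.0216), and Ctnna1, the alphaE-catenin gene, to 124 ± 5.34, against 163 ± 10.6 (-0.39, adjusted p = 0.0258). Tln2, a talin gene, fell to 3.91 ± 0.485, against 5.47 ± 0.2998 (-0.44, adjusted p = 0.0265). The calls of these 3 ended without TuD replicate 1, TuD replicate 2 or AAV9-EGFP replicate 3 (adjusted p of 0.0717, 0.0538 and 0.0836 for Ctnnb1, 0.0770, 0.0522 and 0.0976 for Ctnna1, and 0.0815, 0.0736 and 0.0704 for Tln2). They also ended without AAV9-EGFP replicate 1 for Ctnna1 (0.0774) and Tln2 (0.0794) and without AAV9-EGFP replicate 2 for Ctnnb1 (0.0753) and Tln2 (0.0689). In these fits the estimates were -0.44 to -0.40 for Ctnnb1, -0.37 to -0.35 for Ctnna1 and -0.46 to -0.39 for Tln2. With Y-linked transcripts as covariate none of Ctnnb1 (0.189), Ctnna1 (0.159) and Tln2 (0.238) passed, and Tln2 did not with the length trend removed (0.135) or with no filter (0.0602).

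Outside the disc genes, 5 of 15 further desmosome genes were tested and none passed, with Des, the desmin gene, at 754 ± 55.0 normalised FPKM in TuD hearts and 865 ± 106 in AAV9-EGFP hearts (adjusted p = 0.314). Des passed, lower in TuD hearts, after rescaling to TPM (-0.58, adjusted p = 0.0165) and after quantile normalization (-0.66, 0.0111). Perp, a desmosome-associated membrane protein gene, averaged 68.5 ± 20.5 in TuD hearts and 53.8 ± 2.21 in AAV9-EGFP hearts (adjusted p = 0.255), and passed with Y-linked transcripts as covariate (0.75, adjusted p = 0.0289). The epithelial desmosome genes Pkp1, Dsc1 and Dsc3 were listed at 0 in all 6 libraries.

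Of 21 tested further genes of the intercalated disc 10 fell, 2 rose and 9 did not pass (median -0.24). Over all tested genes 14.3% were lower and 15.0% higher in this fit. With no filter 956 of 22702 genes were lower and 1010 higher, and after rescaling to TPM 4202 of 10460 were lower and 438 higher. Without TuD replicate 3 the counts among the 21 were again 10 and 2. Without TuD replicate 1 or 2, 6 fell and 0 rose, without AAV9-EGFP replicate 1 or 3, 5 fell and 1 rose, and without AAV9-EGFP replicate 2, 4 fell and 0 rose. With no filter 5 fell and 0 rose, with Y-linked transcripts as covariate 3 fell and 0 rose, and after rescaling to TPM 15 fell and 1 rose. Fblim1, a filamin-binding adaptor gene, fell to 31.7 ± 3.80 in TuD hearts, against 69.0 ± 6.25 in AAV9-EGFP hearts (-1.11, adjusted p = 0.00197). Its call held in all 19 alternatives. Xirp1, an actin-binding repeat protein gene, fell to 35.2 ± 6.15, against 65.1 ± 6.15 (-0.89, adjusted p = 0.00574), and Ank2, the ankyrin-B gene, to 1.396 ± 0.1504, against 2.62 ± 0.468 (-0.71, adjusted p = 0.0106). With Y-linked transcripts as covariate these stood at -0.69 (adjusted p = 0.0528) and -0.64 (0.0836). Lists and members were chosen with earlier results of these data known, so the counts describe these libraries and are no independent test.

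**Figure D4:**
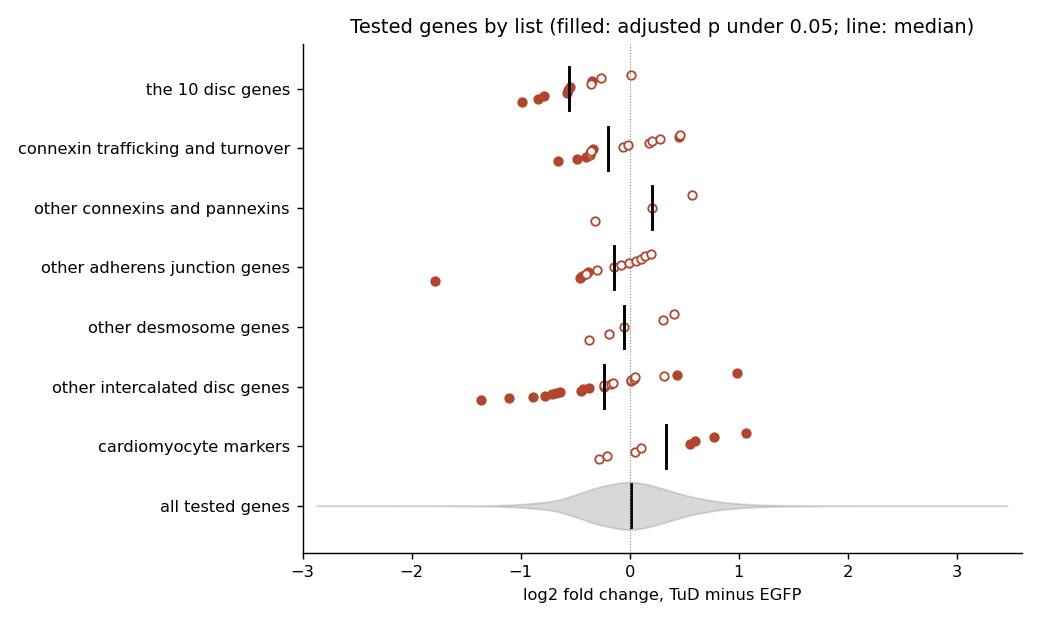
Log2 fold change (TuD minus EGFP) of each tested gene in the 10 disc genes, the other junction lists and cardiomyocyte markers, with the distribution of all tested genes at the bottom; filled points passed at an adjusted p under 0.05 and black lines are medians. The median of the disc genes lies at -0.55, that of cardiomyocyte markers at 0.33 and that of all tested genes at 0.01.

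No cardiomyocyte marker was called lower. Of 8 cardiomyocyte markers 4 rose (Pln, Tnnt2, Myl2 and Tnni3), none fell and 4 did not pass, and their summed level was 33067 to 39204 normalised FPKM in TuD hearts and 30399 to 32476 in AAV9-EGFP hearts. Over all tested genes 14.3% were lower and 15.0% higher. Pln, Myl2 and Tnni3 were short, at 2759, 1950 and 2063 bases, and Tnnt2 had 7752. Of those that did not pass, Ryr2 (28790 bases) stood at -0.28 and Myh6 (6726) at 0.05. Actc1 (1618) stood at -0.21 and Mb (1492) at 0.11. The part of length in these values was not tested. The 7 atrial markers summed to 173 to 232 in TuD hearts and 140 to 384 in AAV9-EGFP hearts, and of the 3 tested none passed. Among 7 conduction system markers 3 were tested and Hcn4, the pacemaker channel gene, fell (-0.78, adjusted p = 0.0195). Hcn4 measured 1.06, 1.32 and 1.41 in TuD replicates 1 to 3, against 3.52, 2.09 and 2.16 in AAV9-EGFP replicates 1 to 3. The conduction list summed to 13.1 to 16.2 in TuD hearts and 15.6 to 28.6 in AAV9-EGFP hearts, highest in AAV9-EGFP replicate 1. Of 8 endothelial markers 1 rose (Egfl7) and none fell, with sums of 261 to 408 in TuD hearts and 258 to 337 in AAV9-EGFP hearts. Of 8 mesothelial and epithelial markers, which mark other cells with desmosomes, 1 was tested, and the list summed to 1.71 to 2.35 in TuD hearts and 1.27 to 2.04 in AAV9-EGFP hearts. The fibroblast list, whose cells also carry connexin 43, had 1 lower (Col1a2), 2 higher (Tcf21 and Lum) and 5 that did not pass, and summed to 137 to 188 in TuD hearts and 142 to 151 in AAV9-EGFP hearts. None of 6 tested arterial endothelial markers passed (sums of 36.0 to 48.6 in TuD hearts and 31.8 to 40.9 in AAV9-EGFP hearts), nor any of 7 macrophage markers (173 to 334 and 163 to 191). Of 6 tested mural cell markers 2 rose, Rgs5 and Kcnj8, and the list summed to 148 to 278 in TuD hearts and 144 to 189 in AAV9-EGFP hearts. Marker genes were tested in the fit to all 6 libraries without further alternatives. The part of these cell types in the values of the disc genes was not tested.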

How the data were processed

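RNA-seq libraries of total RNA (NEBNext Ultra kit, per the labels' protocols) were made from heart tissue, 3 libraries in the TuD group and 3 in the AAV9-EGFP group. The authors deposited FPKM values and gene lengths for 54532 genes; HISAT2 2.0.5, featureCounts 1.5.0-p3 and mm10 are named in the submitters' processing notes. The annotation release and strand setting are not given in the sources used here. FPKM times length gave whole reads for 100% of values within 0.05.

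Each library's FPKM were scaled by a size factor, the median ratio to the geometric mean over genes at an FPKM of at least 1 in all 6 libraries (0.985 to 1.02). Genes at 1 or more in at least 3 libraries were kept (10460). Values were tested as log2(FPKM + 0.5) with limma 3.58.1 (trended eBayes, TuD minus EGFP) in R 4.3.3. The p-values were adjusted by the Benjamini-Hochberg method over all tested genes, calls being made under 0.05. The pseudocount understates changes of low genes. No count test was the main test because FPKM are not counts. The script was tested on simulated data. Sequence searches used Python 3.11.15. The 19 alternatives covered normalization, pseudocount, filter, limma settings, voom on recovered reads, a replicate block, length, Y-linked transcripts and each library left out. Depth was 15231319 to 18224978 assigned reads, lower in every TuD library than in any AAV9-EGFP library.

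The members and lists were chosen with earlier results of these data known. Named from each list were up to 4 genes past the threshold with the smallest p, or, with none, the 2 with the highest mean; marker genes outside this rule were named after their values were seen. Some genes that this rule names are not reported here.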

Additional observations from a re-analysis of the deposited data

How the results depend on the processing

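Of the 10 disc genes 7 were lower in the fit reported; the count was 3 with no filter, 2 with the length trend removed and 2 with Y-linked transcripts as covariate, and 2 to 8 when a library was left out. In the other 10 alternatives it was 5 to 9, and none of the 10 genes was called higher in any of the 19. With no filter 22702 genes were tested instead of 10460; Gja5, Dsc2 and Ctnna3 were not testable at a filter of FPKM 5. The fold change of Gja5 (0.02) turned to -0.33 after rescaling to TPM and -0.28 with Y-linked transcripts as covariate, and ranged from -0.082 to 0.16 when a library was left out. With that covariate Ctnna3 turned to 0.087 and Gja3 to 0.10; Perp turned to -0.081 after rescaling to TPM. The cause was not tested. The TPM scale put the all-gene median at -0.36, and 9.44% of all calls were then higher, against 51.1% in the fit reported. Over all tested genes, 1565 were higher and 1498 lower in the fit reported, 438 and 4202 after TPM, 1010 and 956 with no filter, 651 and 529 with the covariate, and 878 to 1638 and 718 to 1620 when a library was left out. With a replicate block 5 disc genes were lower, Pkp2 (adjusted p = 0.0589) and Dsc2 (0.0582) no longer passing. Of the other adherens junction genes 2 instead of 4 were lower, without Ctnna1 (0.0505) and Tln2 (0.0509). In their deviations from the group means, same-numbered libraries correlated at 0.0637, 0.0882 and -0.0554. The labels do not say whether the numbers pair libraries, and these correlations cannot settle it. Depth limits Gja5, Ctnna3 and Dsc2 most, at 117 to 306 reads per library for the first 2 genes and 156 to 502 for Dsc2.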
